A study of Sus scrofa with 8 samples.

Results

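The subject is a set of 10 pig genes that fibroblasts and other stromal cells are known for: the receptors PDGFRA and PDGFRB, the small proteoglycans DCN and LUM, the secreted matrix proteins POSTN, TGFBI, SPARC, TNC and FBLN1, and the cytoskeletal protein VIM. They were taken by gene symbol from a deposited table of 25578 genes, and each of the 10 symbols matched 1 row. Their messenger RNA was measured in 8 libraries, 2 at each of 4 stages by which pig (Sus scrofa) pluripotent stem cells (PSC) were turned into lung progenitor organoids (LPO) by way of definitive endoderm (DE) and anterior foregut endoderm (AFE). The labels name no cell line, genotype, culture agent or day, and the deposited table calls the PSC libraries EPSC and the LPO libraries Organoid. The question put to the genes was which of them rose before the organoid stage.

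Fibroblasts build and remodel the extracellular matrix of connective tissue. Platelet-derived growth factor (PDGF) receptors carry the signals by which mesenchymal cells grow and move, and collagen fibres are assembled with the help of proteoglycans and matricellular proteins, which sit in the matrix and tune how cells attach to it. In the developing lung such mesenchyme lies next to the budding endodermal epithelium, but several of these genes are not restricted to fibroblasts: VIM is made by many cells that are not epithelial, and SPARC and PDGFRA are also known from extraembryonic endoderm.

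The deposited counts came to 36004372 and 42251431 per library for PSC and lay between 61748702 and 67566269 elsewhere. Of the counts from 1 to 12, 46.4% to 50.7% per library were 4, 8 or 12, which was read as about 4 counts per read pair. The counting step is not described, and the floors, the bounds written as at least and the counting intervals rest on that reading. Several genes known for each stage went with the labels, though not every pluripotency marker did. POU5F1, the core pluripotency regulator, was at 3063 and 3457 FPKM in PSC and at 0.04 or less in LPO, SOX17 of endoderm was at 91.7 and 83.0 FPKM in DE, and NKX2-1, which specifies lung, was at 0 in PSC and DE, at 7.94 and 7.62 FPKM in AFE and at 18.7 and 18.9 FPKM in LPO. SFTPC, surfactant protein C of mature alveolar cells, reached 0.36 and 0.57 FPKM in LPO. FPKM, the authors' level per transcript length and library size, is used here for levels and for comparing genes. Folds and tests use counts scaled to a common library size by TMM (CPM), and every adjusted p is a Benjamini-Hochberg value from edgeR's quasi-likelihood test over 19346 genes, called under 0.05. FPKM carries no TMM scaling, so that ratios of LPO to another stage are larger on the FPKM scale. Whether both libraries of each stage stem from different cultures is not stated in the labels, and p-values therefore reflect the scatter among these samples alone, possibly technical. In bulk samples, fewer cells of a type and less RNA per cell cannot be told apart.

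Measured together, the 10 genes took a small share of the messenger RNA until the last stage. They held 0.106% and 0.103% of all counts in PSC, 0.255% and 0.240% in DE, 0.214% and 0.215% in AFE, and 1.03% and 1.04% in LPO. Their FPKM summed to 359 and 350 in the PSC libraries, 807 and 746 in DE, 652 and 655 in AFE, and 2929 and 2957 in LPO, so that the LPO libraries stood apart from the other 6. The makeup changed with the stage. VIM made up 72.9% and 75.3% of the summed FPKM in PSC and 45.0% and 39.6% in DE, FBLN1 made up 47.8% and 48.2% in AFE, and SPARC made up 34.9% and 34.6% in LPO. POSTN, DCN and LUM were at 0 in both PSC libraries. No member was at 0 in AFE or LPO.

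**Figure D1:**
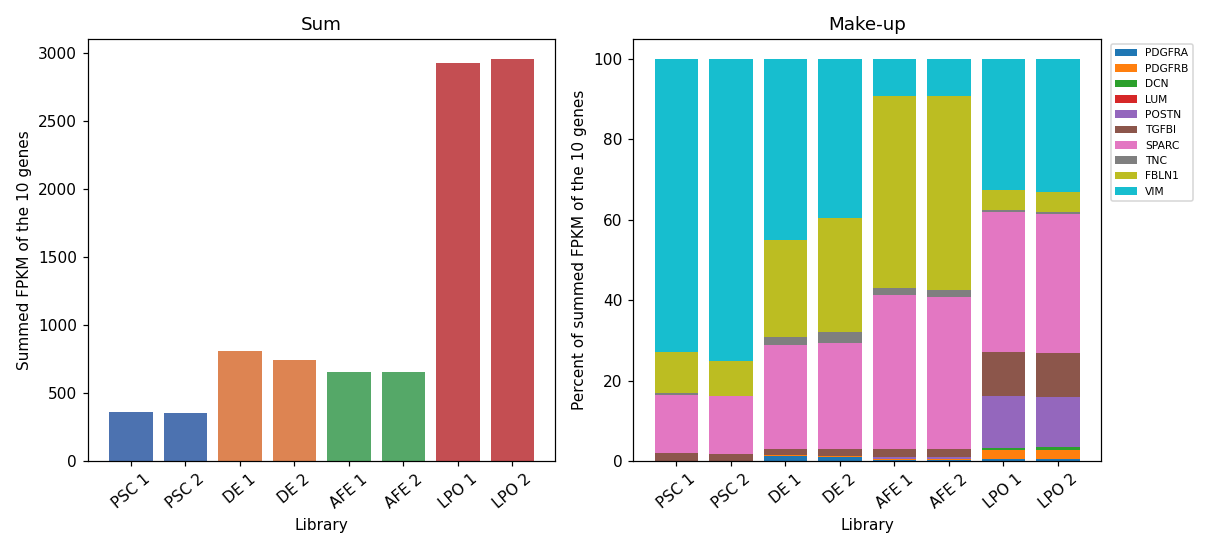
Left, summed FPKM of the 10 genes in each library (bars, coloured by stage). Right, the percent of that sum that each gene held. The sum lay at 2929 and 2957 FPKM in the LPO libraries and at 807 or less in the other 6, VIM led in PSC and DE, FBLN1 in AFE and SPARC in LPO.

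Most members had risen before the organoid stage, but by very different amounts. From PSC to DE 9 of 10 members were called higher and none lower, where 30.8% of all genes tested were called higher and 23.0% lower. From PSC to AFE 9 of 10 were higher (32.8% of all genes) and VIM was lower (24.0% of all genes). The median log2 change of the members, with genes at 0 taken at a floor of 3 read pairs (12 counts) per library, was 2.08 from PSC to DE and 2.92 from PSC to AFE, against 0.08 and 0.18 over all genes. From DE to AFE 5 members were higher (17.9% of all genes), 3 were lower (17.4%) and 2 were not called, and the median was 0.26, against 0 over all genes. From AFE to LPO 7 members were higher (30.2% of all genes), 1 was lower (29.6%) and 2 were not called, with a median of 3.37 against 0.09. Over the whole course from PSC to LPO all 10 members were called higher (41.5% of all genes, with 28.8% lower), with a median of 4.75 against 0.49. All 10 passed the filter on low counts.

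**Figure D2:**
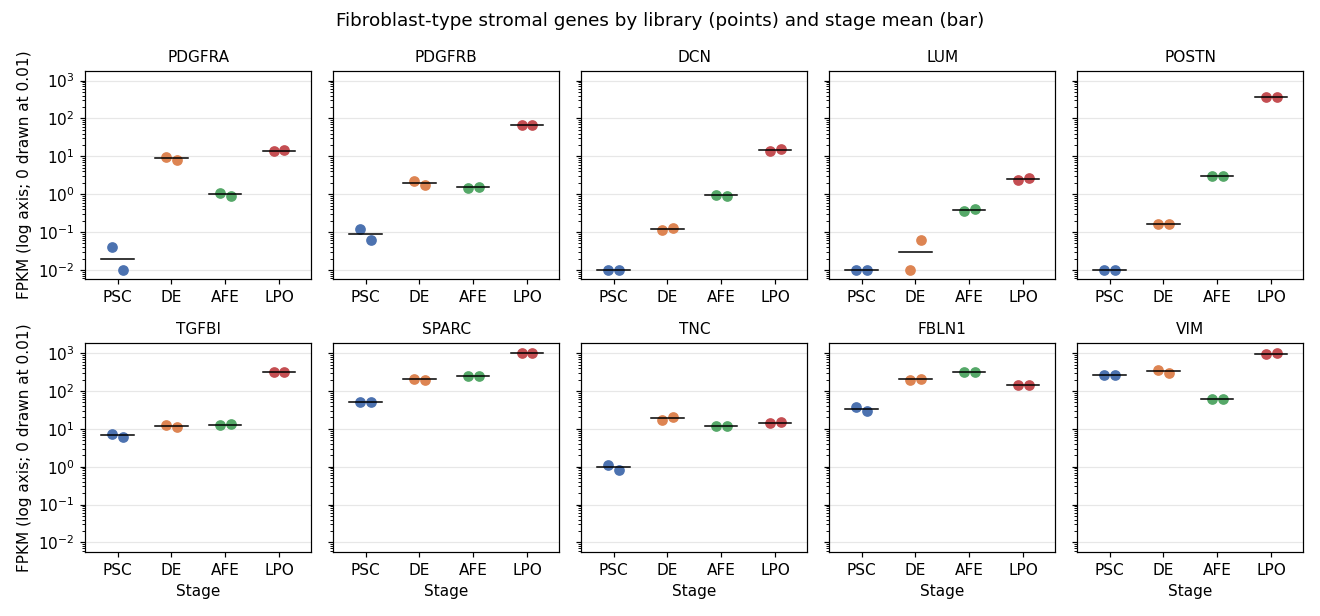
FPKM of each of the 10 genes (log axis, with 0 drawn at 0.01) in the 2 libraries of each stage (points), with the stage mean (bar). POSTN, DCN and LUM climb from 0 in PSC at every later stage mean, PDGFRA and VIM dip in AFE, TNC has its highest libraries in DE and FBLN1 in AFE.

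As a share of the LPO level on the FPKM scale, the members fell into 3 kinds. FBLN1 and TNC had reached or passed the LPO level by DE, at 139% (134% to 144% over pairs of libraries) and 129% (113% to 146%). PDGFRA reached 62.4% (53.4% to 72.3%) in DE and was back at 7.12% in AFE, SPARC climbed to 19.8% in DE and 24.3% in AFE, and VIM went from 27.2% in PSC to 34.1% in DE and 6.26% in AFE. The other 5 stayed low through AFE. LUM stood at 14.9% of its LPO level in AFE, DCN at 6.55%, TGFBI at 4.04%, PDGFRB at 2.25% and POSTN at 0.798%.

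**Figure D3:**
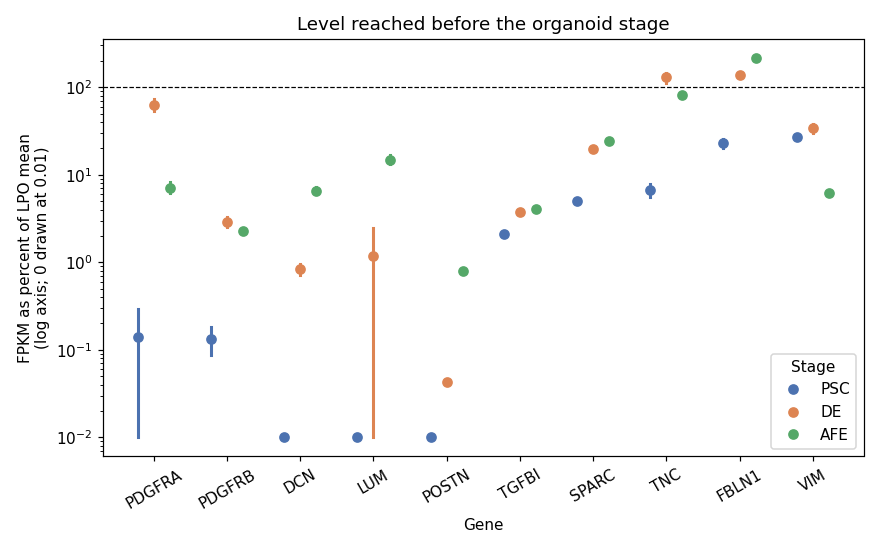
FPKM in PSC, DE and AFE as a percent of the LPO mean for each gene (points, log axis, with 0 drawn at 0.01). Lines run from the lowest to the highest value over pairs of libraries, and the dashed line marks the LPO level. FBLN1 and TNC lie above the line in DE, whereas POSTN, PDGFRB and TGFBI lie under 5% in DE and AFE.

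PDGFRA and PDGFRB are the receptor tyrosine kinases of the PDGF family, and their balance turned over between DE and LPO. PDGFRA (chromosome 8, 40967493 to 41021441, plus strand; genome build not given) was at 0.04 and 0 FPKM in PSC, 9.75 and 7.96 in DE, 1.10 and 0.92 in AFE, and 13.5 and 14.9 in LPO. Its 2 high stages lay well apart from its 2 low ones. In PSC it rested on 12 counts, about 3 read pairs, in 1 library. Against those, the DE level was 408 times higher (95% counting interval 139 to 1980, counting error only; adjusted p = 3.2e-06). It then fell 8.47-fold from 66.1 ± 9.40 CPM in DE to 7.81 ± 0.978 CPM in AFE (log2 change −3.08, SE 0.288, adjusted p = 1.6e-04). It rose 9.97-fold from AFE to LPO (log2 change 3.32, SE 0.291, adjusted p = 2.7e-05). LPO and DE did not differ past the threshold in CPM (log2 change 0.24, SE 0.261, adjusted p = 0.459), although with limma on FPKM, which has no TMM scaling, LPO was called higher (log2 change 0.63, adjusted p = 0.00293).

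PDGFRB (chromosome 2, 151155757 to 151192647, minus strand) was at 0.12 and 0.06 FPKM in PSC, 2.19 and 1.73 in DE, 1.45 and 1.58 in AFE, and 65.8 and 68.8 in LPO. Both LPO libraries stood far above the other 6. It rose 22.5-fold from PSC to DE (log2 change 4.45, SE 0.234, adjusted p = 3.1e-06). DE and AFE were not told apart (log2 change −0.32, SE 0.161, adjusted p = 0.161). From AFE to LPO it rose 31.6-fold, from 11.1 ± 0.681 to 350.0 ± 12.3 CPM (log2 change 4.98, SE 0.181, adjusted p = 4.6e-07). Per transcript length, PDGFRA was 4.45 and 4.60 times PDGFRB in the DE libraries, whereas PDGFRB was 1.32 and 1.72 times PDGFRA in AFE and 4.88 and 4.62 times PDGFRA in LPO. The 2 libraries of DE and the 2 of LPO thus lay on opposite sides of equality, without overlap. With 2 libraries on each side, the smallest p an exact permutation test allows is 0.333.

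The PDGF ligands did not share 1 course, on a list that also held the ligands of transforming growth factor beta (TGF-beta) and the CCN proteins. PDGFA, a ligand of PDGFRA, was at 6.19 and 6.70 FPKM in PSC, 4.08 and 5.20 in DE, 24.5 and 24.8 in AFE and 5.05 in each LPO library (lower value first). It peaked in AFE (DE to AFE log2 change 2.46, adjusted p = 1.0e-05, and AFE to LPO −2.78, adjusted p = 1.1e-06). In AFE PDGFRA was lower than in DE and LPO but higher than in PSC, where PDGFA did not peak. The other PDGF ligands, named here after their values were seen, were each highest in LPO, with means of 19.7 FPKM for PDGFB, 15.7 for PDGFC and 12.7 for PDGFD. TGFB1 rose from 0.570 FPKM in PSC to 14.5 in DE (adjusted p = 4.3e-06) and from 12.3 in AFE to 38.9 in LPO (adjusted p = 0.00168). CCN1, an early-response matricellular protein, was at 5.70, 55.9, 33.5 and 80.7 FPKM in PSC, DE, AFE and LPO, and its relative CCN2 at 7.28, 10.1, 4.99 and 22.9 FPKM. Of the 9 ligands 4 were called higher and 3 lower in DE than in PSC (30.8% and 23.0% of all genes), 4 higher and 3 lower in AFE than in DE (17.9% and 17.4%), and 8 higher and 1 lower in LPO than in AFE (30.2% and 29.6%).

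DCN (decorin) and LUM (lumican) are small leucine-rich proteoglycans that bind collagen fibrils, and LUM was the lowest member by FPKM in DE, AFE and LPO. They lie side by side on chromosome 5, DCN at 91682658 to 91714235 and LUM at 91748885 to 91757598, both on the plus strand and 34649 bases apart. DCN had 0 counts in both PSC libraries, 13 and 15 in DE, 119 and 109 in AFE, and 1527 and 1699 in LPO, or 0, 0.11 and 0.13, 0.98 and 0.91, and 13.6 and 15.2 FPKM. No stage overlapped another. DE was called above PSC (adjusted p = 6.5e-04), but on about 3 to 4 read pairs per DE library, within the floor that a PSC library at 0 allows, and the call was lost with limma on log2(FPKM + 1) (adjusted p = 0.178). AFE was at least 5.75-fold above PSC (adjusted p = 1.9e-05) and 7.71-fold above DE (adjusted p = 3.2e-04), and LPO was 10.8-fold above AFE (log2 change 3.43, SE 0.240, adjusted p = 2.1e-05).

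LUM had 0 counts in PSC, 0 and 12 in DE, 80 and 89 in AFE, and 504 and 547 in LPO, which is 2.41 and 2.63 FPKM at its highest. LUM was the 1 member not called from PSC to DE (adjusted p = 0.113), where both stages lay at or under the floor. AFE was at least 4.27-fold above PSC (adjusted p = 0.00506) and 13.3 times DE (95% counting interval 4.24 to 66.9, adjusted p = 0.0278). LPO was 4.72-fold above AFE, but this was not called (log2 change 2.24, SE 0.834, adjusted p = 0.0548). The call from DE to AFE ended when either AFE library or either LPO library was left out (adjusted p = 0.0669 to 0.0897) or only these stages were fitted (adjusted p = 0.0559), while the fitted log2 change stayed at 3.61 to 3.80. The step from AFE to LPO was called in 13 of the 18 alternatives that gave a value. Per length, DCN was 2.80 and 2.28 times LUM in AFE and 5.65 and 5.79 times LUM in LPO.

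POSTN (periostin) and TGFBI are secreted relatives built from fasciclin domains that link cells to collagen, and both rose steeply at the last step. POSTN (chromosome 11, 13224959 to 13258978, minus strand) had 0 counts in both PSC libraries, 82 in each DE library, 1677 and 1690 in AFE, and 199016 and 195353 in LPO. In FPKM it was at 0, at 0.16 in each DE library, at 2.95 and 3.03 in AFE and at 377 and 372 in LPO. The stages were ordered without overlap, and by LPO POSTN was the gene of rank 115 and 121 by FPKM, after rank 8350 and 8247 in AFE. It was at least 4.36-fold higher in DE than in PSC (adjusted p = 1.6e-06), rose 19.5-fold from DE to AFE (log2 change 4.28, SE 0.0691, adjusted p = 4.0e-07) and rose 88.9-fold from AFE to LPO (log2 change 6.47, SE 0.0665, adjusted p = 1.1e-07), from 27.8 ± 0.571 to 2470.4 ± 16.0 CPM. Over the whole course it was at least 7553-fold higher.

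TGFBI (chromosome 2, 138191807 to 138225366, plus strand) was measured at every stage, at 7.20 and 6.21 FPKM in PSC, 12.3 and 11.5 in DE, 12.8 and 13.1 in AFE, and 320.0 and 320.5 in LPO. The LPO libraries stood alone. It rose 1.82-fold from PSC to DE (log2 change 0.86, SE 0.0784, adjusted p = 4.7e-05), was not called from DE to AFE (log2 change 0.17, SE 0.0761, adjusted p = 0.126), and rose 17.6-fold from AFE to LPO (log2 change 4.13, SE 0.0848, adjusted p = 1.5e-07). Per length, TGFBI was 77.1 and 71.8 times POSTN in DE and 4.35 and 4.31 times POSTN in AFE, whereas in LPO POSTN was 1.18 and 1.16 times TGFBI. The order of the pair was thus reversed in both organoid libraries.

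SPARC (osteonectin) is a collagen-binding matricellular protein, and it was among the few members that rose at all 3 steps. SPARC (chromosome 16, 71357586 to 71381161, plus strand) was at 51.7 and 49.9 FPKM in PSC, 207 and 197 in DE, 249 and 247 in AFE, and 1022 and 1023 in LPO. Its stages did not overlap. The steps were 4.08-fold (log2 change 2.03, SE 0.0521, adjusted p = 1.6e-07), 1.27-fold (log2 change 0.34, SE 0.05, adjusted p = 0.00140) and 2.93-fold (log2 change 1.55, SE 0.0510, adjusted p = 3.4e-07). In LPO it ranked 36 and 37 by FPKM among all genes. POSTN was also called higher at each of the 3 steps, as was DCN, whose first step lay within the floor of 12 counts.

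TNC (tenascin-C) is a large matrix protein of embryonic and healing tissue that loosens cell attachment, and it rose at the first step and then stayed near the level it had reached. TNC (chromosome 1, 255533238 to 255630376, minus strand) was at 1.14 and 0.82 FPKM in PSC, 16.6 and 21.0 in DE, 11.6 and 11.8 in AFE, and 14.4 and 14.7 in LPO. Both PSC libraries were low and the DE libraries were the highest. It rose 19.7-fold from PSC to DE (log2 change 4.30, SE 0.172, adjusted p = 9.5e-07) and fell 1.56-fold from DE to AFE (log2 change −0.64, SE 0.146, adjusted p = 0.0118). LPO was not called against AFE (log2 change −0.18, SE 0.146, adjusted p = 0.328), and the sign of that difference depended on the scale, with LPO above AFE in FPKM. The fall from DE to AFE was not called without DE replicate 2 (log2 change −0.47, adjusted p = 0.0661) or without either AFE library (adjusted p = 0.0663 and 0.0789).

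FBLN1 (fibulin-1), a glycoprotein of basement membranes and elastic fibres, was the member that peaked in the foregut stage and the 1 member that fell into organoids. FBLN1 (chromosome 5, 3839502 to 3911709, minus strand) was at 37.1 and 29.7 FPKM in PSC, 195 and 211 in DE, 312 and 315 in AFE, and 146.0 and 146.0 in LPO. The 4 stages did not overlap. It rose 6.24-fold from PSC to DE (log2 change 2.64, SE 0.0963, adjusted p = 7.3e-07) and 1.60-fold from DE to AFE (log2 change 0.68, SE 0.0907, adjusted p = 9.5e-04). It then fell 3.02-fold, from 1387 ± 16.5 CPM in AFE to 459 ± 1.52 CPM in LPO (log2 change −1.60, SE 0.0925, adjusted p = 3.1e-06), still 3.30-fold above PSC (adjusted p = 1.3e-06).

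VIM (vimentin), the intermediate filament protein of mesenchymal and many other non-epithelial cells, was abundant from the start and went down before it went up. VIM (chromosome 10, 43517307 to 43526170, plus strand) was at 261 and 264 FPKM in PSC, 363 and 295 in DE, 60.1 and 60.8 in AFE, and 954 and 978 in LPO. The AFE libraries were the lowest and the LPO libraries the highest. The step from PSC to DE was small (1.29-fold, log2 change 0.36, SE 0.0896, adjusted p = 0.0101) and its call ended with DESeq2 size factors (log2 change 0.20, adjusted p = 0.103), with the DESeq2 Wald test (0.20, adjusted p = 0.0640) and with upper quartile scaling (0.08, adjusted p = 0.494). From DE to AFE VIM fell 5.26-fold (log2 change −2.40, SE 0.0942, adjusted p = 3.7e-06), and from AFE to LPO it rose 11.4-fold, from 201 ± 2.24 to 2279 ± 47.0 CPM (log2 change 3.50, SE 0.0987, adjusted p = 2.1e-07). AFE was 4.09-fold below PSC (adjusted p = 1.6e-06).

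Whether a gene changed more in the last step than over the steps before it was tested directly, as the log2 change from AFE to LPO minus that from PSC to AFE. Only the 6 members above 0 in all 8 libraries are given, since with PSC at 0 the difference depends on the value put in place of 0. VIM (5.54, SE 0.180, adjusted p = 4.6e-07) and TGFBI (3.10, SE 0.141, adjusted p = 1.7e-06) changed more upward in the last step. FBLN1 (−4.91, SE 0.151, adjusted p = 4.0e-07), TNC (−3.84, SE 0.249, adjusted p = 8.9e-06) and SPARC (−0.82, SE 0.0854, adjusted p = 1.1e-04) changed more upward before it. PDGFRB was not called (0.85, SE 0.362, adjusted p = 0.0841), with log2 changes of 4.13 from PSC to AFE and 4.98 from AFE to LPO. Its larger late rise was called under 8 alternatives, with values of 1.08 to 1.23 under DESeq2 size factors, the DESeq2 Wald test, the 5 FPKM filter, upper quartile scaling and without PSC replicate 2 (adjusted p = 0.00263 to 0.0361), and of 2.28 to 3.70 in the 3 limma fits on FPKM. Over all genes this difference was called above 0 for 20.0% and below 0 for 31.9%. Those shares include genes that fell at either step and genes at 0 in PSC, so they do not count larger rises. For SPARC the call was lost with limma on log2(FPKM + 1) (−0.23, adjusted p = 0.0546), and the sign turned with quantile-normalized FPKM (0.32, adjusted p = 0.0192).

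**Figure D4:**
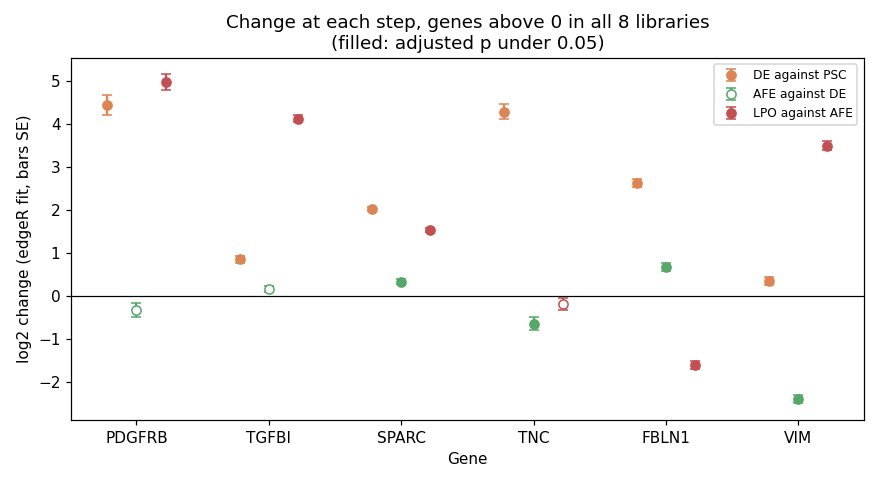
The log2 change of 6 genes above 0 in every library at each step (points, with SE as bars; filled where adjusted p was under 0.05). TNC, FBLN1 and SPARC have their largest rise from PSC to DE, TGFBI and VIM from AFE to LPO, and PDGFRB rises by 4.45 and 4.98 at the first and the last step.

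A comparison of LPO with DE, added after the data were seen so that stages could be ordered, called 7 members higher in LPO (31.6% of all genes) and 2 lower (31.1%). The 2 lower in LPO were FBLN1 (1.89-fold, adjusted p = 5.3e-05) and TNC (1.76-fold, adjusted p = 0.00165), and PDGFRA was not called. The FBLN1 call was lost with quantile-normalized FPKM (log2 change −0.061, adjusted p = 0.520) and the TNC call with limma on log2(FPKM + 0.1) (−0.36, adjusted p = 0.0953). By tested order in CPM, POSTN and SPARC went PSC, DE, AFE, LPO from low to high. DCN went DE, AFE, LPO, with its PSC to DE step within the floor. TGFBI and PDGFRB had LPO on top, PSC at the bottom and DE and AFE not told apart. VIM went AFE, PSC, DE, LPO. FBLN1 went PSC, LPO, DE, AFE. TNC had PSC at the bottom, LPO and AFE not told apart and DE on top. PDGFRA went PSC, AFE and then DE and LPO, which were not told apart. For LUM neither PSC and DE nor AFE and LPO were told apart.

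The genes most like each member in pattern were sought among 8927 genes with a symbol and at least 5 FPKM in a stage, by the root mean square difference of log2 CPM over the 8 libraries after each gene was centred on its mean. SPARC had the closest match, GGCX, the vitamin K-dependent carboxylase, at a difference of 0.0776, with ZBTB5 next at 0.153. FBLN1 was matched by B3GAT3, an enzyme that builds the linker of glycosaminoglycan chains (0.152), and by PLEKHG3 (0.178). TNC was matched by NKD2, a WNT inhibitor (0.164), and by the cyclin CCND2 (0.215). TGFBI was matched by ITPRID2 (0.205) and SUCO (0.239), and VIM by SKIL, a repressor of SMAD factors (0.303), and FGD6 (0.339). PDGFRA was matched by SPSB1 (0.356) and by KDR, the main receptor of vascular endothelial growth factor (0.707), and PDGFRB by GHR, the growth hormone receptor (0.392), and SLC26A2, a sulphate transporter (0.410). DCN had F3 (tissue factor, 0.405) and CFD (complement factor D, 0.441), LUM had SLPI (0.664) and SMPDL3B (0.732), and POSTN had the fibrillar collagen COL3A1 and LAMB3, a laminin chain of epithelia (1.57 each). Among the members themselves the nearest pairs were FBLN1 and TNC (0.782), DCN and LUM (0.976) and TGFBI and SPARC (1.04), and the farthest was POSTN and VIM (5.72).

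Other stromal genes were followed by lists of genes known for each role. Of 43 tested matrix genes outside the set, 25 were higher and 6 lower in DE than in PSC (30.8% and 23.0% of all genes), 13 higher and 14 lower in AFE than in DE (17.9% and 17.4%), and 32 higher and 6 lower in LPO than in AFE (30.2% and 29.6%). The median log2 change of this list at the last step was 2.31, or 2.17 with genes at 0 taken at the floor, against 0.09 over all genes. The fibrillar collagens COL1A2 and COL3A1 had means of 0.555 and 0.020 FPKM in PSC, 5.29 and 3.95 in DE, 13.4 and 23.1 in AFE, and 348 and 659 in LPO. FN1 (fibronectin) was highest in DE, at 620 FPKM, against 3.39 in PSC, 148 in AFE and 382 in LPO. SERPINH1, the collagen chaperone, was at 50.9, 200, 118 and 175 FPKM in that order of stages and was not called from AFE to LPO (adjusted p = 0.667). Of 14 receptors, against those same shares of all genes, 9 were higher and 1 lower from PSC to DE, 3 higher and 4 lower from DE to AFE, and 9 higher and 2 lower from AFE to LPO. ITGB1, the common beta chain of matrix integrins, rose from 40.7 FPKM in AFE to 148 in LPO (adjusted p = 7.6e-07), whereas its fibronectin-binding partner ITGA5 was highest in DE (71.4 FPKM). From AFE to LPO ITGA5 was called lower in CPM (log2 change −0.27, adjusted p = 0.00755), while its mean FPKM went from 21.2 to 24.8. DDR1 was at 13.1, 23.7, 37.7 and 60.2 FPKM in PSC, DE, AFE and LPO, and its last step was not called (adjusted p = 0.116). ITGB5 was at 12.5, 18.8, 39.1 and 34.2 FPKM and was called lower at the last step (log2 change −0.69, adjusted p = 2.3e-04).

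Transcription factors of mesenchyme were followed in the same way. Of 15 tested, 9 were higher and none lower from PSC to DE, 6 higher and 2 lower from DE to AFE, and 11 higher and 1 lower from AFE to LPO, where 30.8% and 23.0%, 17.9% and 17.4%, and 30.2% and 29.6% of all genes were called. TWIST1, a driver of mesenchymal fate, had means of 0, 0.525, 3.47 and 56.6 FPKM in PSC, DE, AFE and LPO (AFE to LPO adjusted p = 6.7e-04). SNAI1, a repressor of epithelial genes, was at 3.74, 6.79, 1.98 and 18.9 FPKM, with a dip in AFE as in VIM, and its relative SNAI2 was at 0.045, 1.34, 2.82 and 17.3 FPKM. OSR1, a factor of intermediate and lateral mesoderm and of foregut mesenchyme, ran the other way at the last step, from 134 FPKM in AFE to 11.9 in LPO (adjusted p = 1.1e-05).

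Markers of other cell types moved beside these genes, and their part in the results was not tested. Epithelial markers, 16 of 16 found, summed to 3358 to 3484 FPKM in PSC, 28277 to 30782 in DE, 16067 to 16501 in AFE and 3634 to 3774 in LPO. Of these 16, 10 were lower and 2 higher in LPO than in AFE (29.6% and 30.2% of all genes). The simple keratins KRT8 (6518 to 1337 FPKM), KRT18 (5523 to 447 FPKM) and KRT19 (2767 to 774 FPKM) were among those lower. These keratins made up most of the epithelial sum in AFE and in LPO, so the fall of the sum was mainly theirs. EPCAM, the pan-epithelial adhesion protein, was lower too, at 77.8 to 86.9 FPKM in AFE and 64.8 to 67.4 in LPO (log2 change −0.81, adjusted p = 1.1e-04). The 2 that were higher were CDH1 (E-cadherin, 74.6 to 133 FPKM) and ESRP1 (13.1 to 26.4 FPKM), an epithelial splicing factor. Smooth muscle and pericyte markers, 14 of 14 found, summed to 57.3 to 58.3 FPKM in PSC, 151 to 152 in DE, 138 to 142 in AFE and 211 to 214 in LPO, with MYOCD, the smooth muscle co-activator, at 0 in all 8 libraries. Of the 13 tested, 8 were higher and 4 lower in LPO than in AFE (30.2% and 29.6% of all genes). RGS5 went from 0.21 to 20.7 FPKM and ACTA2 from 16.9 to 4.3 FPKM, both named after their values were seen. Primitive and parietal endoderm markers, 14 of 14 found, summed to 215 to 230 FPKM in PSC, 564 to 592 in DE, 280 to 291 in AFE and 492 to 510 in LPO, and SOX7 was at 0 in PSC. Of these 14, 13 were higher and 1 lower in DE than in PSC (30.8% and 23.0% of all genes). From DE to AFE 2 were higher and 7 lower (17.9% and 17.4% of all genes). In LPO 7 were lower and 3 higher than in AFE (29.6% and 30.2% of all genes). GATA4 went from 0.08 to 73.0 FPKM and GATA6 from 0.285 to 35.0 FPKM between PSC and DE, both named after their values were seen. PLAT, a plasminogen activator, went from 45.7 to 305 FPKM and made up most of the LPO sum, and FST made up most of the PSC sum, at 158 FPKM; both were named after their values were seen. Endothelial markers, 8 of 9 found, were low in sum, at 4.16 to 4.85 FPKM in PSC, 13.2 to 20.6 in DE, 7.55 to 7.84 in AFE and 14.4 in each LPO library. CDH5, TEK, VWF and ERG were at 0 in PSC. From PSC to DE 7 of the 8 were called higher and none lower (30.8% and 23.0% of all genes), with CDH5, TEK, VWF and ERG at 0.65 FPKM or less in DE. From AFE to LPO 2 were higher and 2 lower (30.2% and 29.6% of all genes). KDR alone had means of 9.01 FPKM in DE and 6.35 in LPO. Mesothelial markers, 5 of 8 found, summed to 2.78 FPKM or less before LPO and to 12.8 to 13.5 in LPO, with CALB2 at 0 in AFE and LPO. Of these 5, 2 were higher and none lower in LPO than in AFE (30.2% and 29.6% of all genes). They were WT1 (0.065 to 7.2 FPKM) and KRT5 (0.2 to 5.3 FPKM). UPK3B (adjusted p = 0.954) and BNC1 (adjusted p = 0.0787) were not called, and MSLN, LRRN4 and ITLN1 were not found. Which cells made WT1 and KRT5 was not tested. WT1 and KRT5 were named after their values were seen, and together they made up most of the LPO sum. Early mesoderm markers, 9 of 10 found, summed to 12.1 to 31.2 FPKM throughout, with TBXT, the primitive streak factor, at 0 in PSC, DE and AFE. Single genes moved under that sum. Of 8 tested, 2 were higher and 2 lower from DE to AFE (17.9% and 17.4% of all genes). From AFE to LPO 1 was higher and 1 lower (30.2% and 29.6% of all genes). EOMES went from 17.4 FPKM in DE to 0 in AFE and LPO, and FOXC2 from 0.225 FPKM in AFE to 10.9 in LPO.

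**Figure D5:**
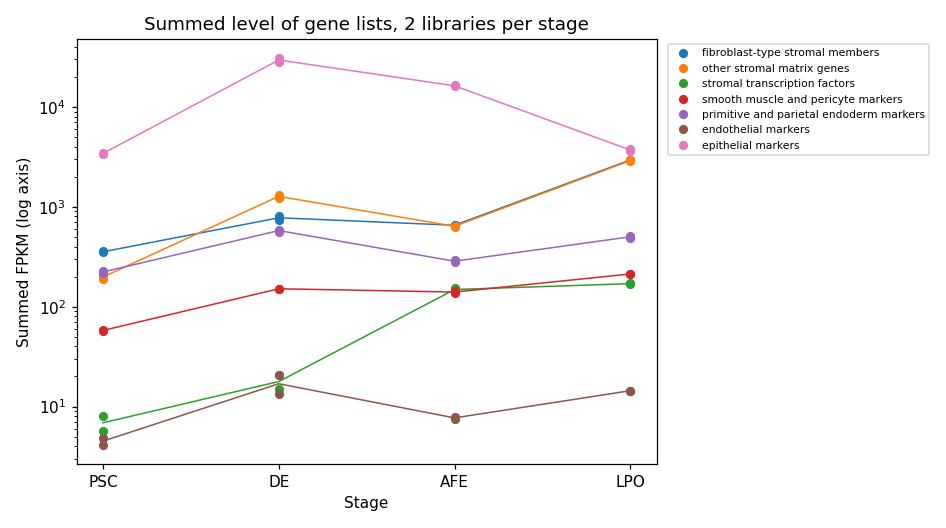
Summed FPKM (log axis) of 7 gene lists at the 4 stages, with 1 point per library and lines through the stage means. The 10 fibroblast-type genes and the other stromal matrix genes are highest in LPO, at 2929 to 2957 and 2875 to 2920 FPKM. The epithelial sum, mostly KRT8, KRT18 and KRT19, falls from 16067 to 16501 in AFE to 3634 to 3774 in LPO.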

How the data were processed

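Poly(A) RNA was sequenced in 2 libraries from each of the 4 stages. The submitters' processing notes name the trimmer cutadapt 1.9, the aligner HISAT2 2.2.1, the assembler StringTie 2.1.6, and also edgeR and DESeq2. They name no genome build. The authors deposited 1 table of expected counts per gene, which are whole numbers with low values gathered at 4, 8 and 12. The same table holds the authors' FPKM values. The 10 members, the gene lists and the tests were chosen with earlier results of these data known. Counts were fitted as deposited with edgeR 4.0.16 (R 4.3.3): TMM scaling, filterByExpr, the quasi-likelihood test with 4 residual degrees of freedom, all 8 libraries in 1 fit, and Benjamini-Hochberg adjustment over 19346 of 25578 genes. The fit was tested on simulated data. A library at 0 was given a floor of 3 read pairs, or 12 counts (0.150 to 0.357 CPM), and intervals and floors cover counting error only. Members are all named, as are the 2 genes nearest each in pattern and up to 4 genes of highest mean FPKM per stromal list among those called in LPO against PSC. Symbols of 130 genes were filled from the RefSeq table. Alternatives were other filters, scalings, DESeq2 1.42.0, limma 3.58.1 on log2(FPKM + 1) and log2(FPKM + 0.1), counts divided by 4, a replicate block, fits of only the stages compared, and each library left out. Quantile-normalized FPKM and LPO against DE were added after seeing the data.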

Additional observations from a re-analysis of the deposited data

How the results depend on the processing

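Over 19 alternatives, 8 of which left out 1 library, 539 of the member values obtained with a library left out kept their direction and side of the threshold, 10 gained a call and 11 lost one. Under the other alternatives 709 kept both, 26 gained a call, 10 lost one and 17 reversed. TNC from AFE to LPO reversed with a filter of 5 FPKM (0.095), limma on log2(FPKM + 1) (0.29) and log2(FPKM + 0.1) (0.31) and quantile-normalized FPKM (0.068). The late minus early change reversed for 4 genes at or near 0 in PSC: with limma on log2(FPKM + 1) it was 2.03 for DCN, 0.90 for LUM, 1.94 for PDGFRA and 4.56 for POSTN, with log2(FPKM + 0.1) 0.41, 0.22, 0.46 and 1.97, and with quantile-normalized FPKM 1.61, 0.17, 1.55 and 4.72, beside 0.32 for SPARC. In these 3 fits the late minus early change was called above 0 for 7, 4 and 7 members and below 0 for 2, 3 and 2. The balance over all 19346 genes turned too, with 7795, 7090 and 6295 called above 0 and 4407, 4639 and 5325 below 0. In the main fit these were 3868 and 6170 genes. The cause was not tested. From AFE to LPO 2 members were lower when only those stages were fitted, since TNC was then called (log2 change −0.21, adjusted p = 0.00587). From DE to LPO 1 member was lower with log2(FPKM + 0.1), where TNC lost its call, and 1 with quantile-normalized FPKM, where FBLN1 did. With the 5 FPKM filter 8604 genes were called from PSC to LPO against 13602, since fewer genes were tested, and LUM had no value. With a library left out, 4535 (without AFE replicate 2) to 7894 genes were called from DE to AFE, against 6838.

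The share of calls that were higher was 57.2% from PSC to DE with TMM and 46.1% with upper quartile scaling, and 57.8% and 48.6% from PSC to AFE. In the limma fits on log2(FPKM + 1), where test and unit change too, it was 53.1% from PSC to DE, 52.3% from PSC to AFE and 66.9% from AFE to LPO (50.5% with TMM), and with quantile normalization 43.0%, 44.5% and 49.5%. The median of all genes from AFE to LPO was 0.09 with TMM and 0.22 with upper quartile scaling. Same-numbered libraries did not deviate together over all tested genes (r from −0.014 to 0.0078 between stages). This r includes genes of low count, where counting error can hide a shared deviation, so it cannot show whether the numbers paired the libraries. With the replicate block, 9759 genes were called from PSC to DE, 6137 from DE to AFE, 10788 from AFE to LPO, 10203 from PSC to AFE and 12596 from PSC to LPO, and the counts of members called higher and lower were those of the fit without the block. Depth limits DCN and LUM in PSC and DE, where they rest on 0 to 15 counts.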

Other observations

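PDGFRA lies on chromosome 8 beside 2 other receptor tyrosine kinase genes. KIT, the stem cell factor receptor, starts 380601 bases beyond it and KDR lies 787680 bases away. KIT was at 24.3 and 27.2 FPKM in PSC, 11.2 and 9.40 in DE, 5.03 and 4.47 in AFE and 41.1 and 37.9 in LPO, so it shared the low AFE level of PDGFRA but not its low PSC level. KDR was at 0.09 and 0 FPKM in PSC, 11.7 and 6.33 in DE, 1.02 and 0.96 in AFE and 6.75 and 5.94 in LPO. PDGFRB lies on chromosome 2, 8123 bases from CSF1R, the macrophage colony-stimulating factor receptor, which stayed at 0.12 FPKM or less in every library.

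By the gene ontology terms in the deposited table, 6 of the 10 members were annotated to the extracellular space (4.05% of tested genes), and 4 to the collagen-containing extracellular matrix (0.553% of tested genes): POSTN, LUM, TNC and SPARC.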
